A study of Mus musculus with 6 samples.

Results

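The genes described here encode isoforms of 5 subunits of the vacuolar proton pump in mpkCCD cells, which are immortalized mouse kidney cells derived from cortical collecting duct. They are 10 genes, chosen by name. For each of the subunits B, C, G, a and d, these are the isoform known from kidney (Atp6v1b1, Atp6v1c2, Atp6v1g3, Atp6v0a4 and Atp6v0d2) and the ubiquitous isoform (Atp6v1b2, Atp6v1c1, Atp6v1g1, Atp6v0a1 and Atp6v0d1). A probe set named for the gene alone was found for 9 of them, among 18193 genes with such a probe set. These 9 had 20 probe sets in all, and the one of highest mean signal stood for the gene. Atp6v1g3 had no probe set named for it and was not analysed here. Of these 9 genes, 7 passed the filter on low signal, a mean over the arrays above 85.5 signal units, the median of all probe sets.

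RNA came from 6 lines with 1 Affymetrix array each: the original mpkCCD line, called mpkCCDc14 in the design text, and their clones 2, 3, 9, 10 and 11. All 6 lines, clone 2 included, were grown for 5 days in 0.1 nM dDAVP, an analog of vasopressin. Clone 2 is labelled as not expressing the water channel aquaporin 2 (AQP2, gene Aqp2), and the other 5 lines as expressing it; the design text asks which transcripts follow AQP2 among the lines. Each clone is a colony grown from mpkCCDc14, no line without dDAVP was used here, and with 1 array per line p-values measure the spread between these arrays, and a difference between lines cannot be told apart from one between single cultures or hybridizations. Clone 2 is 1 line, so its other traits cannot be told apart from the lack of AQP2.

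The vacuolar proton pump is a rotary enzyme. Its cytosolic V1 sector hydrolyses ATP, and its membrane V0 sector carries protons into lysosomes, endosomes and secretory vesicles of nearly all cells. In the collecting duct, acid-secreting intercalated cells also place the pump in the plasma membrane, and they use isoforms of several subunits that are rare elsewhere. Inherited loss of the B1 or a4 isoform causes distal renal tubular acidosis. Principal cells, the cell type mpkCCD cells stand for, are known mainly for AQP2 and sodium transport.

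Promoter sequences are shown for the 2 kidney isoforms that passed the filter and for Atp6ap1, which encodes an accessory subunit and was the only pump subunit gene past both tests used here. They are the 250 bases before the annotated start in RefSeq (GRCm38.p6), on the strand of the gene, 5′ to 3′, with capitals marking a match to a searched motif. Positions are counted back from the start site. A RefSeq promoter entry was found for 19 of 25 pump genes, 6 of them among the 10 isoform genes.
Atp6v1b1, chr6:83742767-83743016, plus strand: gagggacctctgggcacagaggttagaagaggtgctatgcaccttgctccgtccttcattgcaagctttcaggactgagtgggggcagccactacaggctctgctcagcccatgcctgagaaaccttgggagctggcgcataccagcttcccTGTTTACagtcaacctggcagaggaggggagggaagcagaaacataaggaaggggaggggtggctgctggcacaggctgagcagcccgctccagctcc
Atp6v0a4, chr6:38124587-38124836, minus strand: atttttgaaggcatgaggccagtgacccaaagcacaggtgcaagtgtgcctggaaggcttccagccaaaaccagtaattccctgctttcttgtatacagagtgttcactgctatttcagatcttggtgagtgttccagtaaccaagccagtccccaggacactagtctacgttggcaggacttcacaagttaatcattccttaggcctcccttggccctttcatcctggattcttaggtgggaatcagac
Atp6ap1, chrX:74296847-74297096, plus strand: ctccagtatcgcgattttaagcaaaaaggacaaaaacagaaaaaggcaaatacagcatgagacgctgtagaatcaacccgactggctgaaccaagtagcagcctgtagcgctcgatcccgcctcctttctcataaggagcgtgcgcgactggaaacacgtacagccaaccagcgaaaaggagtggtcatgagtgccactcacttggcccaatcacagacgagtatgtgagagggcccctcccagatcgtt

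The 3 motifs searched on both strands do not overlap each other in the windows shown. They were GTAAACA, a forkhead motif of the kind bound by FOXI1, the factor known to drive the B1 and a4 genes in intercalated cells, CACGTG, the core of the element bound by TFEB at lysosomal genes, and TGACGTCA, the cAMP response element. The Atp6v1b1 window held 1 forkhead match, read as its reverse complement at -98 to -92, and 3.17% of 32851 windows of this length held one. The Atp6v0a4 and Atp6ap1 windows held none of the 3. CACGTG was found in 2 of the 19 pump genes with an entry, Atp6v0b and Atp6v1a, beside 6.02% of all windows, and TGACGTCA in 1.55% of all windows and in none of the pump genes. Atp6v0c, Atp6v1g2 and Tcirg1 had more than 1 window each, so a count of genes and a share of windows are unlike measures. A match is a match of letters only.

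Subunit B binds nucleotide together with subunit A in the catalytic head. The kidney isoform Atp6v1b1 (chr6:83743017-83758855) had a signal of 949 in clone 2, 687 in the original line, 656 in clone 11, 605 in clone 3, 564 in clone 9 and 413 in clone 10. Clone 2 stood above all other lines and clone 10 below them, and both gaps exceeded the SD of the expressing lines (107), while no gap between neighbours among the lines in between did. The ubiquitous Atp6v1b2 (chr8:69088736-69113718) lay between 1855 in clone 10 and 2167 in clone 9, with clone 2 at 1880.02, inside the range of the others. Its highest line exceeded its lowest by 1.17 times, the smallest spread of the 9 genes, against 2.30 times for Atp6v1b1.

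Subunit C is a clamp of the outer stalk that is released when V1 leaves V0. The ubiquitous Atp6v1c1 (chr15:38661904-38692444) had a signal of 7521 in clone 2, 5318 in clone 11, 5299.9 in the original line, 4841 in clone 9, 4430.3 in clone 3 and 4017 in clone 10. Only clone 2 was separated from its neighbour by more than the SD of the expressing lines (563). The kidney isoform Atp6v1c2 (chr12:17284721-17325386) had signals of 3.44 to 14.1, below the filter in every line, so its order among lines was not read.

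Subunit G forms the outer stalk with subunit E. Atp6v1g1 (chr4:63544765-63550701) had a signal of 7759.9 in clone 2, 6179.6 in clone 10, 5832 in the original line, 5741 in clone 3, 5302 in clone 11 and 4659 in clone 9. Clone 2 was again highest, here clone 9 was lowest, and these were the gaps larger than the SD of the expressing lines (585).

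Subunit a holds the channels through which protons cross the membrane and steers the pump to its compartment. Its kidney isoform Atp6v0a4 (chr6:38048483-38124586) varied most among the 7 isoform genes past the filter, with 488 in clone 3, 479.7 in clone 2 and 439.6 in clone 10. Clone 11 had 188, the original line 139.8 and clone 9 had 81.2. The lines fell into a high and a low set of 3 lines each, and the step from clone 10 to clone 11 was the only one beyond the SD of the expressing lines (184). The highest line exceeded the lowest by 6.01 times. Atp6v0a4 was read on a single probe set, and its signal in clone 9 was below the filter value of 85.5. The ubiquitous Atp6v0a1 (chr11:101009422-101063719) was highest in clone 9, at 1008, where Atp6v0a4 was lowest. Clone 11 followed at 806, clone 3 at 719.55, clone 2 at 697, the original line at 667 and clone 10 at 655, and only clone 9 was separated by more than the SD (145).

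Subunit d couples the membrane ring to the turning shaft. The ubiquitous Atp6v0d1 (chr8:105524461-105566064) lay between 3450.4 in clone 10 and 4425 in clone 9, with 3946 in clone 2, and no gap between neighbouring lines exceeded the SD of 462. Atp6v0d2 (chr4:19876838-19922566), known from kidney and osteoclasts, had signals of 5.44 in clone 3 and 36.4 to 56.1 in the other lines, all below the filter. Without detection calls such low signals do not show that Atp6v1c2 and Atp6v0d2 transcripts were absent.

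**Figure D1:**
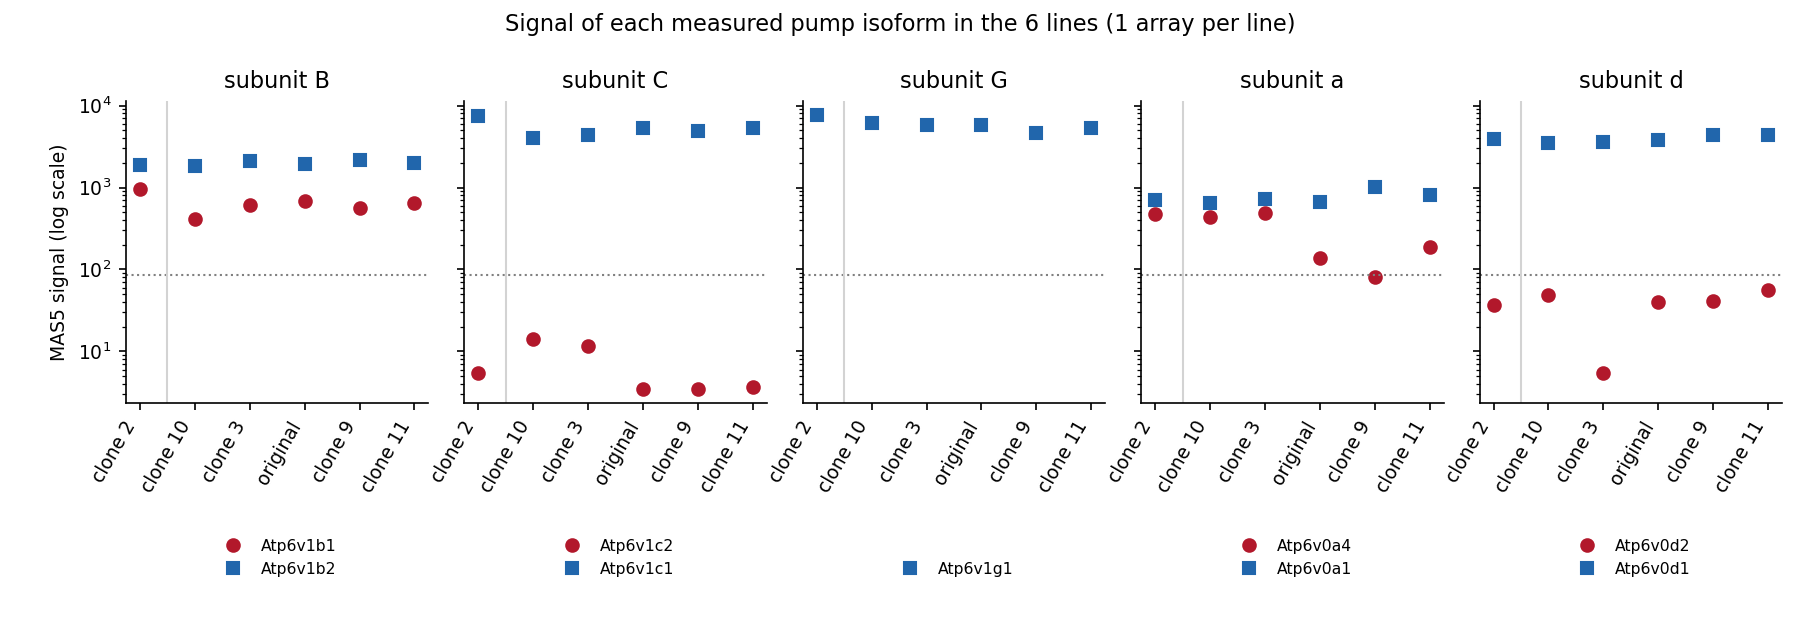
MAS5 signal (log scale) of the kidney isoform (red circles) and the ubiquitous isoform (blue squares) of each subunit in the 6 lines, 1 array per point, lines ordered by Aqp2 signal, with the filter of 85.5 as a dotted line and clone 2 left of the grey line. Atp6v0a4 lies between 439.6 and 488 in clones 2, 3 and 10 and between 81.2 and 188 in the other lines; heights of different probe sets cannot be set against each other.

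No isoform gene passed the test of clone 2 against the 5 expressing lines, although Atp6v1c1, Atp6v1b1 and Atp6v1g1 each lay above every expressing line. In clone 2 the signal was 1.57 times the mean of the expressing lines for Atp6v1c1 (4781 ± 563, SD, n = 5), 1.62 times for Atp6v1b1 (585 ± 107) and 1.40 times for Atp6v1g1 (5543 ± 585). The test was limma on log2(signal + 18.8), where 18.8 is the 25th percentile of the signals, and p-values were adjusted by Benjamini-Hochberg over the 22518 probe sets past the filter, with a threshold of 0.05. Over all probe sets the call rate was 2.49% (0.817% higher and 1.67% lower), and 0 of the 7 isoform genes past the filter were called, with 3 at an unadjusted p under 0.05, beside 20% of all probe sets. A clone 2 value outside the range of the others was found for 3 of 7, all 3 above it, beside 53.6% of all probe sets past the filter, 24.3% of them above and 29.3% below.

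The log2 difference of Atp6v1c1 was 0.66 (SE 0.167, 95% interval 0.28 to 1.04, limma adjusted p = 0.074). Its other 2 probe sets gave 0.56 (adjusted p = 0.0811) and 0.52 (adjusted p = 0.089). Clone 2 was above all 5 expressing lines on each of the 3. That of Atp6v1g1 was 0.49 (SE 0.157, interval 0.14 to 0.84, adjusted p = 0.131). A further probe set of Atp6v1g1 past the filter also gave 0.49 (adjusted p = 0.0741), and one below the filter had clone 2 inside the range of the others. That of Atp6v1b1, with 1 probe set, was 0.70 (SE 0.258, interval 0.12 to 1.28, adjusted p = 0.177). Atp6v0a4 had the largest difference, 1.07, but also the widest interval, -0.64 to 2.78 (SE 0.758, adjusted p = 0.467), and the expressing lines themselves ranged from 81.2 to 488.

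For the 3 remaining ubiquitous isoforms the intervals included 0. They ran from -0.43 to 0.23 for Atp6v1b2 (log2 difference -0.096, adjusted p = 0.756), from -0.66 to 0.41 for Atp6v0a1 (-0.12, adjusted p = 0.812) and from -0.36 to 0.40 for Atp6v0d1 (0.017, adjusted p = 0.969). These intervals do not show that clone 2 and the expressing lines were alike. Probe sets of second highest signal gave the opposite sign for Atp6v1b2 (0.16) and Atp6v0a1 (0.11), neither past the test, and the 2 further probe sets of Atp6v0a1 were positive as well (0.16 and 0.077). The 2 genes below the filter, fitted without it, gave -0.079 for Atp6v1c2 (adjusted p = 0.95) and 0.049 for Atp6v0d2 (adjusted p = 0.983).

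**Figure D2:**
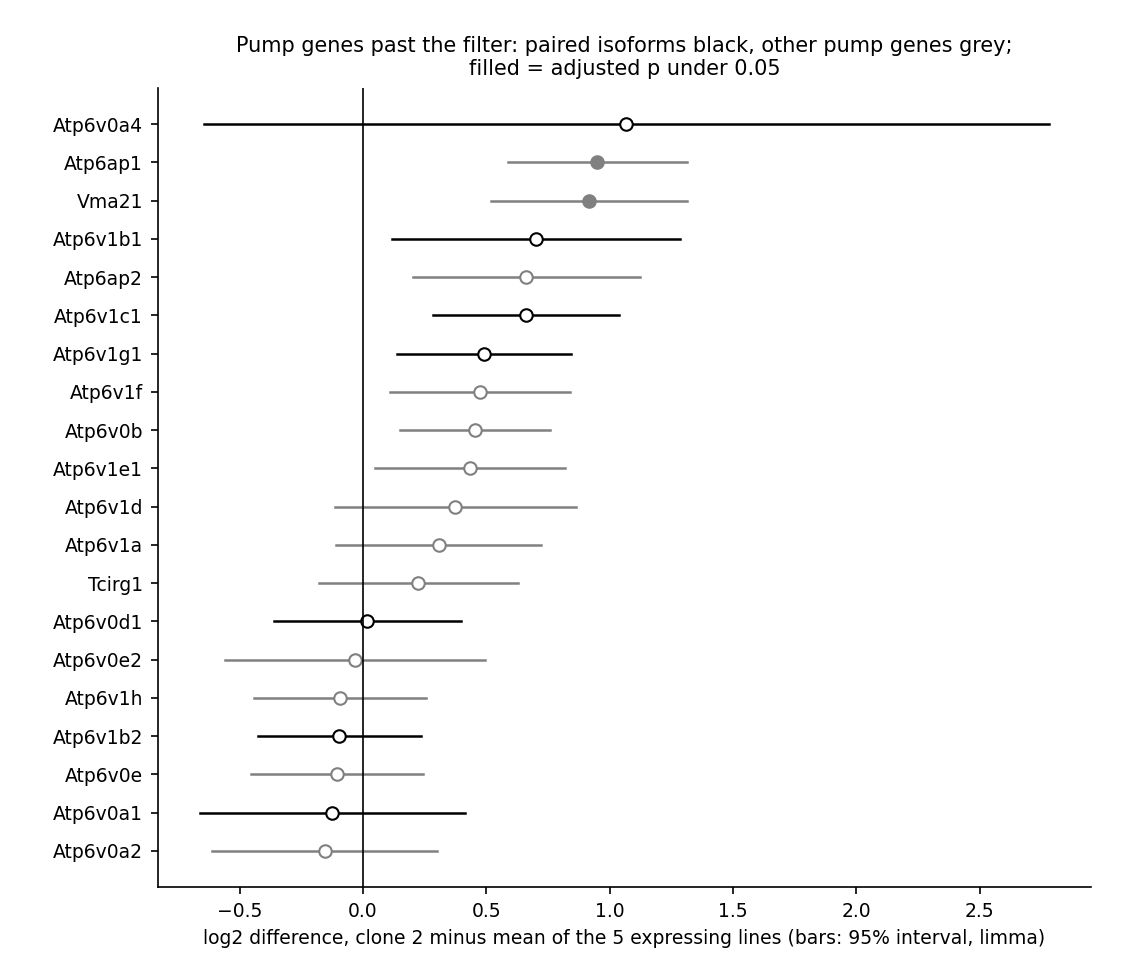
Log2 difference of clone 2 from the mean of the 5 expressing lines for the subunit genes past the filter and Vma21, with 95% limma intervals as bars, the paired isoforms in black, the others in grey, and filled points where the adjusted p was under 0.05. Only Atp6ap1 (0.95) and Vma21 (0.92) are filled, and Atp6v0a4 has the widest interval, -0.64 to 2.78.

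Isoform pairs were compared by the log2 ratio of the kidney to the ubiquitous isoform within each array. Only its change between lines was read, since signals of different probe sets cannot be set against each other. The Atp6v1b1 to Atp6v1b2 ratio of clone 2 lay 0.80 above the mean of the expressing lines (SD 0.261, n = 5). Against that mean the ratio was 0.31 in the original line, 0.20 in clone 11, -0.017 in clone 3, -0.14 in clone 9 and -0.35 in clone 10, so clone 2 was above all of them. With the Atp6v1b2 probe set of second highest signal, clone 2 lay 0.54 above the mean of the expressing lines. Another line then differed from the rest by at least as much as clone 2.

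The Atp6v0a4 to Atp6v0a1 ratio was 1.19 in clone 2, 1.17 in clone 3 and 1.16 in clone 10 against the same mean. It was -0.28 in clone 11, -0.40 in the original line and -1.65 in clone 9. Clone 2 thus shared its ratio with 2 expressing lines, and in clone 9, where the ratio was lowest, Atp6v0a4 had its lowest and Atp6v0a1 its highest signal.

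The exact permutation over the 6 arrays, two-sided, gave p = 0.167 for the B pair, the smallest this design allows, and p = 0.333 for the a pair, both 0.444 after adjustment over the 4 pairs compared. With a single line on one side this test cannot reach 0.05. For the C pair (-0.74, exact permutation p = 0.333) and the d pair (0.033, exact permutation p = 0.833) the kidney isoform was below the filter, and the ratio rests on signals near the offset. The G pair could not be compared.

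**Figure D3:**
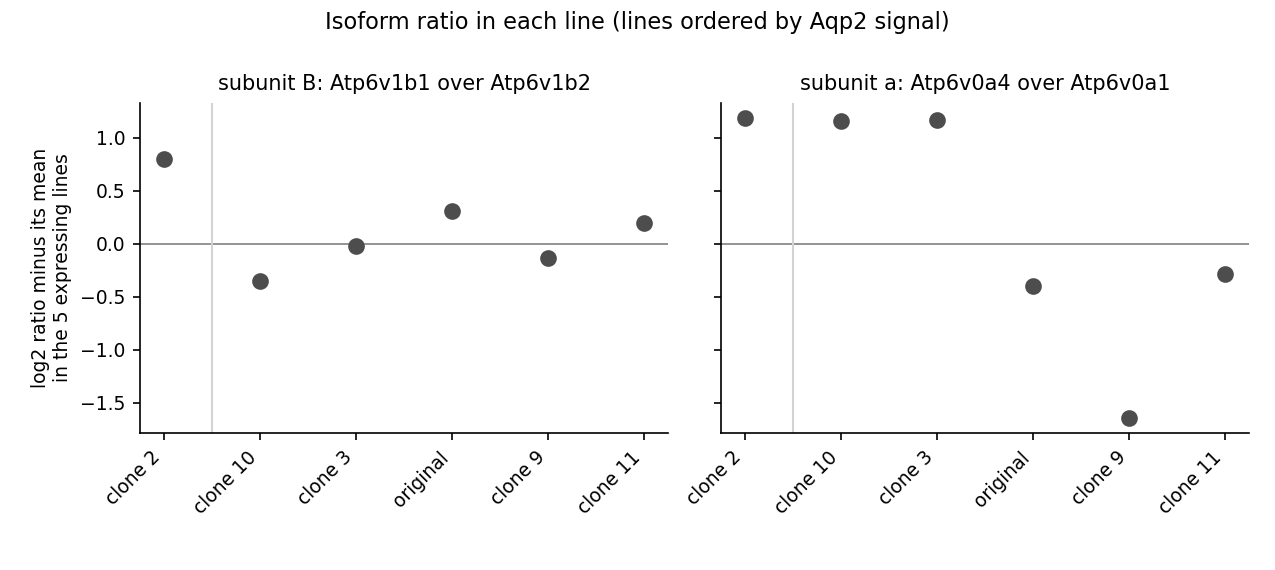
Log2 ratio of kidney to ubiquitous isoform in each line (1 array per point) minus its mean in the 5 expressing lines, for subunits B and a, lines ordered by Aqp2 signal. Clone 2 is highest for subunit B (0.80, or 0.54 with the Atp6v1b2 probe set of second highest signal, not drawn). For subunit a clones 2, 3 and 10 share a ratio of 1.16 to 1.19 and clone 9 lies at -1.65.

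No isoform gene followed Aqp2 past the test, but Atp6v0a4 was high in the 3 lines of lowest Aqp2 signal and low in the other 3. The Aqp2 signal of clone 2 was 159, that of clone 10 was 1066, that of clone 3 was 1698, that of the original line was 3822, that of clone 9 was 4683 and that of clone 11 was 6578. In a limma fit on the log2 Aqp2 value, Atp6v0a4 had a slope of -0.39 per log2 unit of Aqp2 (SE 0.122, unadjusted p = 0.0104, adjusted p = 0.125). Without clone 2 the slope was -0.76 (adjusted p = 0.273), so its sign did not rest on clone 2, while its size moved by over 1.5 times.

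The slope of Atp6v1g1 was -0.12 (SE 0.0287, adjusted p = 0.0725), and without clone 2 it was negative as well. The slopes of Atp6v1c1 (-0.084, adjusted p = 0.407) and Atp6v1b1 (-0.080, adjusted p = 0.567) turned positive without clone 2, at 0.15 and 0.19, and neither passed the test in either fit. The remaining 3 slopes lay between 0.025 and 0.059. In this fit 1.76% of 22517 probe sets were called (1.02% with a positive and 0.742% with a negative slope) and 0 of the 7 isoform genes, with 2 at an unadjusted p under 0.05, beside 19.9% of all probe sets.

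**Figure D4:**
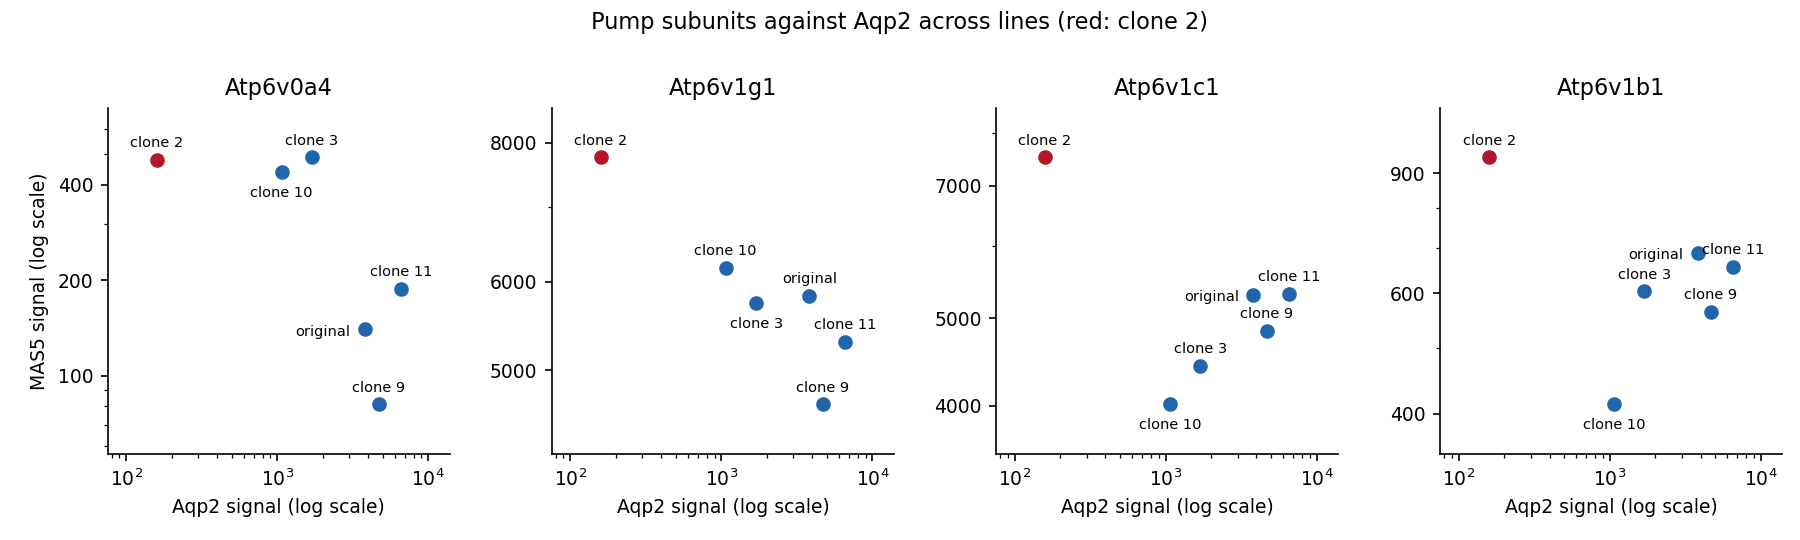
MAS5 signal of 4 isoform genes against that of Aqp2 in the 6 lines (both axes log scale, 1 array per point, clone 2 in red). Atp6v0a4 is at 439.6 to 488 in the 3 lines of lowest Aqp2 signal and at most 188 in the others, while Atp6v1c1 and Atp6v1b1 are highest in clone 2 and, among the other lines, lowest in clone 10.

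Among the 12 other pump subunits past the filter 1 rose in clone 2 and none fell, beside 0.817% and 1.67% of all probe sets. This was Atp6ap1, the accessory subunit Ac45 (chrX:74297097-74304721). Clone 2 had a signal of 4039, clone 10 of 2331, the original line of 2186, clone 9 of 2073, clone 3 of 2057 and clone 11 of 1799. Clone 2 stood at 1.93 times the mean of the expressing lines (2089 ± 196, SD, n = 5), and the log2 difference was 0.95 (limma SE 0.160, adjusted p = 0.0245). The call was lost without the original line (adjusted p = 0.0582) and without the mean-variance trend (0.0687), and over all alternatives the adjusted p lay between 0.015 and 0.0687. Atp6ap1 also fell with rising Aqp2, by 0.20 per log2 unit (adjusted p = 0.0379), but without clone 2 the slope was -0.095 (adjusted p = 0.594), and the call was also lost without clone 3 (0.0505), clone 11 (0.107) or the original line (0.0725), with no filter (0.0845) and without the trend (0.0981).

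Of 15 further subunit genes listed, 12 passed the filter. The median log2 difference over these 12 was 0.34, against -0.027 over all probe sets, and 8 were positive, beside 10695 of 22518 probe sets. Clone 2 lay outside the range of the expressing lines for 8, beside 53.6% of all probe sets, and 5 had an unadjusted p under 0.05, beside 20%. Atp6ap2, the prorenin receptor (log2 difference 0.66, limma adjusted p = 0.121), Atp6v1f of the central shaft (0.48, adjusted p = 0.151), the membrane ring subunit Atp6v0b (0.45, adjusted p = 0.109) and Atp6v1e1 of the outer stalk (0.43, adjusted p = 0.199) were all highest in clone 2 without passing the test. Atp6v0c, the main ring subunit, had no probe set named for it and was not analysed here.

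By sector, a grouping made after these values were seen, the 8 ubiquitous V1 genes had a median log2 difference of 0.40, with 6 positive, and the 7 V0 genes other than Atp6v0a4 one of -0.034, with 3 positive. With the kidney isoforms Atp6v1b1 and Atp6v0a4 the medians were 0.43 over 9 V1 genes, 7 of them positive, and -0.0087 over 8 V0 genes, 4 of them positive. The accessory subunits Atp6ap1 (0.95) and Atp6ap2 (0.66) were counted in neither sector. The difference between the sectors was not tested. The median over all genes of a chromosome ran from -0.28 to 0.22 for the chromosomes of these V1 genes. For those of the V0 genes it ran from -0.37 to 0.19. The part of chromosome in the sector medians was not tested. In the V1 sector, Atp6v1a and Atp6v1d of the catalytic head and shaft, Atp6v1c1, Atp6v1e1, Atp6v1f and Atp6v1g1 were highest in clone 2, and Atp6v1b2 and the regulatory subunit Atp6v1h were not. Clone 9 was the lowest line for 6 of these 8 genes. Over all 10342 genes past the filter, clone 2 was the highest line for 29% and clone 9 the lowest for 22.1%. The median deviation of the V1 genes from their own mean was 0.34 in clone 2, -0.34 in clone 9 and between -0.046 and 0.035 in the other lines. For the a subunit, Tcirg1 (a3, known from osteoclasts) gave 0.22 and Atp6v0a2 gave -0.16, neither past the test.

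The list of pump assembly and regulation genes held 23 past the filter, of which 1 rose and none fell, beside the same 0.817% and 1.67%, and the median log2 difference was -0.12. The gene that rose was Vma21, a chaperone of V0 assembly (chrX:71812752-71824706), read on 1 of its 4 probe sets, that of highest mean signal. It had 1315 in clone 2 against 689 ± 56.4 (SD, n = 5) in the expressing lines, whose highest was 738. The log2 difference was 0.92 (SE 0.176, limma adjusted p = 0.0365). Its call was lost on leaving out clone 3 (adjusted p = 0.0629), clone 10 (0.0568), clone 11 (0.0608) or the original line (0.0828), with no filter (0.0577) and without the trend (0.0676), and over all alternatives the adjusted p lay between 0.0236 and 0.0828.

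Atp6ap1, Atp6ap2 and Vma21, the 3 largest differences past the filter in the lists of other subunits and of assembly and regulation genes, are X-linked. The median of the 297 X-linked genes past the filter was 0.47 in clone 2, 87.2% of them were positive and 8.75% were called higher. The chromosomes of Atp6v1c1 (15), Atp6v1g1 (4) and Atp6v1b1 (6) had medians of 0.17, 0.19 and 0.13. The part of these chromosome shifts in the differences of the pump genes was not tested.

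Of 16 markers of intercalated cells, 6 passed the filter, beside 10342 of all 18193 genes. The 10 below it included, named for their known role, Foxi1, with 3.52 in clone 2 and 2.83 to 38.4 in the expressing lines. They also included the anion exchangers Slc4a1 (25.2, and 2.71 to 33.0) and Slc26a4 (54.6, and 29.6 to 41.6). Those past the filter were Car2, with a mean signal of 3514 over the arrays, Rhcg (382), Bsnd (323), Car12 (268), Aqp6 (241) and Car15 (138). None of the 6 past the filter rose in clone 2 and 1 fell, the intracellular water channel Aqp6 (39.0 against 281 ± 44.3, SD, n = 5; log2 difference -2.36, limma adjusted p = 0.00648). Over all probe sets 0.817% were called higher and 1.67% lower. Aqp6 was read on 1 of its 4 probe sets, that of highest mean signal. Aqp6 (chr15:99598468-99605478) lies near Aqp2 (chr15:99579056-99584545), and the part of this position in its fall was not tested. The summed signal of the list was 4159 in clone 2, 2692 of it Car2, and 3593 to 6476 in the expressing lines. Such a sum adds signals of different probe sets, so the strongest genes weigh most. Of 10 principal cell markers past the filter 4 fell in clone 2, beside the same 1.67%. Aqp2, by whose expression the lines are labelled, was 1 of them. The sum of that list was 12107 against 27666 to 32901, and it includes Aqp2, with 159 against 1066 to 6578. The part of either list in the isoform values was not tested. Of 9 macrophage and osteoclast markers 2 passed the filter and neither was called. The list summed to 2781 in clone 2, 1838 of it Csf1r, and to 1985 to 3120 in the expressing lines. Cd68 (619, and 122 to 323) and, below the filter, Acp5 (201, and 7.45 to 125) were above every expressing line in clone 2. The rest of that list lay inside the range of the expressing lines. Of 8 proximal tubule markers the 1 past the filter, Lrp2, fell (116, and 809 to 1067), beside the same 1.67%. That list summed to 298, and 947 to 1254. Of 7 fibroblast markers none passed the filter (sum 229, and 174 to 265). In these bulk samples fewer cells of a type and less RNA per cell cannot be told apart.

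Median signals of the 6 arrays lay between 79.6 and 88.6, lowest in clone 2. Aqp2 was 22.4 times higher on average in the expressing lines than in clone 2, in the direction of the labels, and its call (adjusted p = 0.0388) was lost without clone 11 (0.0535) or the original line (0.0869), with no filter (0.0814), without the trend (0.0857) and in a robust fit (0.157). The number of arrays limits the precision.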

How the data were processed

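The authors deposited linear signal intensities. The submitters' processing notes name MAS5 and Affymetrix Expression Console 1.1. Each array's mean without the lowest and highest 2% of values was 500.0, as found from the deposited signals, so the arrays share a scale; any other step is not given in the sources used here. Leaving out 64 control probe sets kept 45037, of which 34945 had 1 gene in the platform annotation, 932 several and 9160 none named. Symbols were updated through gene identifiers to GRCm38.p6.

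Differences of log2(signal + 18.8) were fitted with limma 3.58.1 under R 4.3.3 (lmFit and eBayes with a trend, 4 residual degrees of freedom in both fits), two-sided, after a filter that kept 22518 probe sets. Clone 2 was assumed to vary like the expressing lines. Fits and the permutation were tested on simulated data. Alternatives were no offset or a doubled one, no filter or one at the 75th percentile, arrays scaled by quantiles or by medians, no trend, a robust fit, and each line left out. Another probe set was tried for isoform genes only, where they had one.

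The isoform genes and lists were chosen with earlier results of these data known. Named are the 10 genes, Aqp2, other pump subunits and list genes past a test. Some cell type markers are also named, for a known role, for their signal or after their values were seen. Called markers of other cell types are mostly given as counts.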

Additional observations from a re-analysis of the deposited data

Results flagged for a closer look

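Atp6v0d2 in clone 3, with a signal of 5.44, lay apart from the 4 other expressing lines, whose signals were 39.6 to 56.1; its gap to the nearest on the log2 scale was 0.779 of the group's range, above the critical value of 0.71. Chance gives such a gap in about 1 in 20 groups, and 14 were examined. All values of this gene were below the filter.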

How the results depend on the processing

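No isoform gene passed either test under any alternative run, 13 for clone 2 and 14 for the slope. The clone 2 difference stayed between 0.59 and 0.79 for Atp6v1b1, 0.56 and 0.75 for Atp6v1c1, 0.43 and 0.58 for Atp6v1g1 and 0.76 and 1.34 for Atp6v0a4. That of Atp6v0d1 turned to -0.032 with quantile normalization, -0.014 without clone 3 and -0.027 without clone 10, and with each line left out in turn it lay between -0.027 and 0.062. With the probe set of second highest signal it turned to 0.16 for Atp6v1b2 and 0.11 for Atp6v0a1, and their slopes to -0.031 and -0.060. Without clone 2 the slopes turned to 0.19 for Atp6v1b1, 0.15 for Atp6v1c1 and -0.046 for Aqp6, and with each line left out in turn they lay between -0.11 and 0.19, -0.12 and 0.15, and -0.046 and 0.53. Probe sets called in clone 2 numbered 560, 210 with no filter, 219 without the trend and 154 to 943 with a line left out; for the slope they numbered 397, 51, 1 and 0 to 645. The pair ratio ranged from 0.54 to 0.87 for B, from 0.78 to 1.48 for a, from -0.83 to -0.59 for C and from -0.22 to 0.42 for d. The cause of these changes was not tested. No paired analysis was possible because clone 2 has a single array and the labels number no replicates. Signals below the filter in every line limit what can be read of Atp6v1c2 and Atp6v0d2.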

Other observations

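The high set of Atp6v0a4, clones 2, 3 and 10, held the 2 lines with the highest signals of Rhbg, an ammonium transporter of the collecting duct and one of the intercalated cell markers, named here after its values were seen. Rhbg had 155 in clone 3, 156 in clone 10, 77.2 in the original line, 76.8 in clone 2, 22.4 in clone 11 and 10.1 in clone 9. Its order was like that of Atp6v0a4 at both ends among the expressing lines, with clones 3 and 10 highest and clone 9 lowest, but clone 2 was not in its high set, and its mean signal was below the filter. Rhcg, its relative, also named after its values were seen, was ordered otherwise, with 1526 in clone 11, 271 in the original line, 258 in clone 2, 202 in clone 10, 25.9 in clone 3 and 8.42 in clone 9. Scnn1b, a sodium channel subunit among the principal cell markers, passed the filter and was also named after its values were seen. It had 507 in clone 10, 350 in clone 3 and 194 in clone 2. The original line had 184, clone 11 had 112 and clone 9 had 96.6. Clones 10, 3 and 2, the high set of Atp6v0a4, were thus its highest lines, though clone 2 lay close to the original line. Elf5 of the same list, below the filter, also had these lines highest. The sodium channel subunits Scnn1g and Scnn1a, past the filter, were instead lowest in clone 2. Scnn1g had 108 there against 183 to 988 among the expressing lines, and Scnn1a had 364 against 500 to 698. How many of all genes share the order of Scnn1b was not counted. No test was made of any of these orders.

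Atp6v1g2, the isoform of subunit G known from brain, was lowest in clone 2, with 32.0 against 65.1 to 142 in the expressing lines, but its mean was below the filter. Over all 10342 genes past the filter, clone 2 was the lowest line for 26.9%. The gene lies on chromosome 17, whose genes past the filter had a median log2 difference of -0.37 in clone 2. The part of this chromosome shift was not tested.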
